A study of Homo sapiens with 18 samples.

Results

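The GADD45 genes, and PPP1R15A by its other name GADD34, are named for induction by growth arrest and DNA damage. GADD45GIP1 is named as a partner of the GADD45 proteins, and PPP1R15B is the constitutive counterpart of PPP1R15A. These genes were taken by symbol, and all 6 of the listed genes were found among the 58051 genes of the count files. They are GADD45A, GADD45B, GADD45G, GADD45GIP1, PPP1R15A (also called GADD34) and PPP1R15B (also called CReP). RNA was sequenced from hTERT RPE-1, an immortalised human line that carries telomerase and derives from the retinal pigment epithelium, and which the labels place in G0/G1. Every group had been starved of serum for 48 h at 0.1% and was collected in a course of 10 µM triptolide, a drug that binds XPB in the initiation factor TFIIH and so stops transcription. In the etoposide arm, cells had first received 50 µM etoposide, which traps topoisomerase II on cleaved DNA, for 30 min, and the titles call the other arm DMSO. Samples of both arms came from time points 0, 20 and 40, whose unit the labels do not give, in 3 independent replicates, so that 6 groups and 18 libraries were compared. The labels also leave out whether triptolide was already present at 0. The question posed by the design is whether RNA stability and RNA levels differ after etoposide.

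GADD45A, GADD45B and GADD45G encode small acidic proteins that bind and activate MAP3K4, a kinase above p38 and JNK, and that also bind PCNA, p21 and the CDK1 complex. PPP1R15A and PPP1R15B are regulatory subunits that bring protein phosphatase 1 to the translation factor eIF2α and so end the translational block of the integrated stress response. PPP1R15A is induced by stress and PPP1R15B is made constitutively. GADD45GIP1 is a subunit of the mitochondrial ribosome, first described as a partner of the GADD45 proteins.

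Total counts per library ranged from 7957691 to 11580219. Levels are given as normalised counts at a common library total of 1000000 (CPM), scaled by TMM factors of 0.976 to 1.02, so that a level is relative to the rest of the library's RNA. In such bulk samples fewer cells that express a gene and less RNA per cell cannot be told apart. Of the pigment epithelium markers, RPE65 had 28 counts over all libraries, TYR had 2 and TTR had 0, while the transcription factor genes MITF and OTX2 averaged 43.1 and 26.4 CPM. The whole list summed to 69.1 to 2545 CPM per library, with a median of 89.1 CPM. The upper end was that of the library with the high BEST1 count described below. Of 8 fibroblast markers 5 had enough counts to be tested, and the list summed to 493 to 816 CPM. Of 8 markers of other epithelia only 2 were tested and 2 had 0 counts in all libraries, while that list summed to 891 to 2046 CPM. Blood cell markers, of which 0 of 8 were tested, summed to 0.249 to 1.88 CPM. Proliferation genes summed to 2196 to 2753 CPM. The second DMSO library of time point 0 stood apart, since genes typed as antisense held 1.42% of its counts against 0.217% to 0.253% elsewhere. BEST1, a pigment epithelium marker, had 21473 counts there and 5 to 177 in the other libraries, and the values of GADD45GIP1 that rest on this library are given with and without it. Libraries that share a replicate number varied together within their groups, so each test was also run with the replicate number as a block.

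The 3′ untranslated regions (3′UTRs) carry the sequence feature most often tied to fast mRNA decay, the pentamer AUUUA of AU-rich elements. They are shown here because the members differed in it and because transcription was blocked. The windows below come from the GENCODE 29 transcripts on GRCh38, with each AUUUA in capitals.
GADD45A, first site: aacuauguauuaAUUUAgaaugguugagu
GADD45A, second site: acaugaaaaguuAUUUAugcuauaaauuu
PPP1R15A, both sites: gguuugccuauaAUUUAuuaacuAUUUAu
PPP1R15B, one of its sites: uacaucauaaucAUUUAuuuuuuaaacuu

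PPP1R15A had its 2 pentamers within a 3′UTR of only 84 bases, or 23.8 per kb. Of the 12073 3′UTRs of tested genes, 99.9% had a lower density, and 12.4% of the 217 3′UTRs within 20% of its length held AUUUA. PPP1R15B had 11 pentamers in 2705 bases (4.07 per kb, with 84.3% of genes lower). GADD45A had 2 in 564 bases (3.55 per kb, with 78.8% lower). GADD45B, GADD45G and GADD45GIP1 had 0 in 658, 476 and 1089 bases, although 71.1% of all 3′UTRs held at least 1. Among 3′UTRs within 20% of their lengths the shares were 62.6%, 51.2% and 78.4%. The longer motif UUAUUUAUU, which contains AUUUA, was found in 0 of the 6 members and in 8.77% of 3′UTRs. These motifs were read on the transcript strand.

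GGACU is a core of the sites at which the m6A methyltransferase marks mRNA, the modification named in the title of the series. It occurred 4 times in the GADD45B transcript (2.91 per kb, with 98.3% of tested genes lower) and 0 times in that of GADD45A. GADD45G held 3 (2.82 per kb, with 97.9% lower) and GADD45GIP1 held 4 (2.24 per kb, with 94.4% lower). PPP1R15A held 3 (1.26 per kb, with 68.8% lower) and PPP1R15B held 7 (1.34 per kb, with 72.5% lower). Of all transcripts 91.9% held it. A match to these letters is a description of the sequence and not a measured site.

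GADD45B lies on chromosome 19 at 2476122 to 2478259 on the plus strand (GRCh38, ENSG00000099860). At time point 0 of the DMSO arm its level was 69.5, 68.5 and 77.9 CPM in replicates 1, 2 and 3. At 20 it was 47.8, 51.9 and 73.9 CPM, and at 40 it was 17.8, 18.5 and 29.6 CPM. Every library of time point 40 was below every library of the earlier time points, and replicate 3 was the highest of its group at each. In the etoposide arm GADD45B started at 62.9, 49.5 and 72.9 CPM, stood at 62.6, 51.1 and 73.9 CPM at 20 and ended at 24.4, 22.4 and 28.6 CPM. Here too the 3 libraries of time point 40 were below all others, while those of 0 and 20 spanned nearly the same range.

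GADD45B fell by 1.71 on the log2 scale from 0 to 40 with DMSO (SE 0.22, edgeR quasi-likelihood adjusted p = 0.000826). It fell by 1.30 with etoposide (SE 0.22, edgeR adjusted p = 0.0182), a call that 3 of 9 leave-outs kept. At 40, 30.2% ± 6.79 of the level at 0 was left with DMSO and 41.1% ± 3.63 with etoposide (SD, n = 3 pairs of the same replicate number). Most of the fall lay in the later interval, with log2 changes from 20 to 40 of −1.40 (edgeR adjusted p = 0.00799, kept in 4 of 9 leave-outs) with DMSO and −1.31 (edgeR adjusted p = 0.0477, kept in 2 of 9) with etoposide. From 0 to 20 the level with etoposide was 101% ± 1.99 of the start, and with DMSO it was 79.8% ± 13.5 (log2 change −0.32, SE 0.22, edgeR adjusted p = 1.0). With the replicate block the adjusted p of the 4 changes that end at 40 was at most 2.13e-06. Those blocked calls held each time a library or a replicate number was left out. Without the block, the call from 0 to 40 with DMSO held in 7 of 9 leave-outs and was lost without replicate 1 (adjusted p = 0.35) or replicate 2 (adjusted p = 0.165). A fit of the compared groups alone made none of the 4 calls (adjusted p of 0.0598 to 0.206).

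GADD45A lies on chromosome 1 at 67685061 to 67688338 on the plus strand (GRCh38, ENSG00000116717). With DMSO it measured 67.2, 67.9 and 68.3 CPM at 0, then 54.4, 67.5 and 74.7 CPM at 20 and 48.0, 51.3 and 45.7 CPM at 40. The libraries of time point 0 were almost equal, those of 20 spread to both sides of them, and those of 40 were below all of the others. With etoposide it measured 58.9, 64.4 and 58.4 CPM at 0, 77.0, 82.0 and 68.2 CPM at 20, and 60.2, 73.0 and 51.0 CPM at 40. All 3 libraries of time point 20 were above all 3 of time point 0, and those of 40 overlapped both.

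From 0 to 40 the log2 change of GADD45A was −0.49 with DMSO (SE 0.14, edgeR adjusted p = 0.292) and 0.02 with etoposide (SE 0.14, edgeR adjusted p = 1.0). The DMSO change passed with the replicate block (edgeR adjusted p = 0.0414), a call that no leave-out kept, its adjusted p then being 0.0582 to 0.541. GADD45A at 40 was at 71.3% ± 4.28 of its start with DMSO and at 101% ± 13.0 with etoposide. From 0 to 20 with etoposide the log2 change was 0.32 (95% interval 0.03 to 0.62, edgeR adjusted p = 1.0 in both models), and the level was 125% ± 7.27 of the start. The sign of the change from 0 to 40 with etoposide depended on the scaling, being −0.01 with library totals and −0.09 with housekeeping genes.

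GADD45G, on chromosome 9 at 89605013 to 89606555 (GRCh38, ENSG00000130222), had 0 counts in each of the 18 libraries. At these depths 3 counts, the limit that a count of 0 allows, correspond to 0.259 to 0.377 CPM per library, a limit for counting error only. It entered no test, and 5 of the 6 members did.

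**Figure D1:**
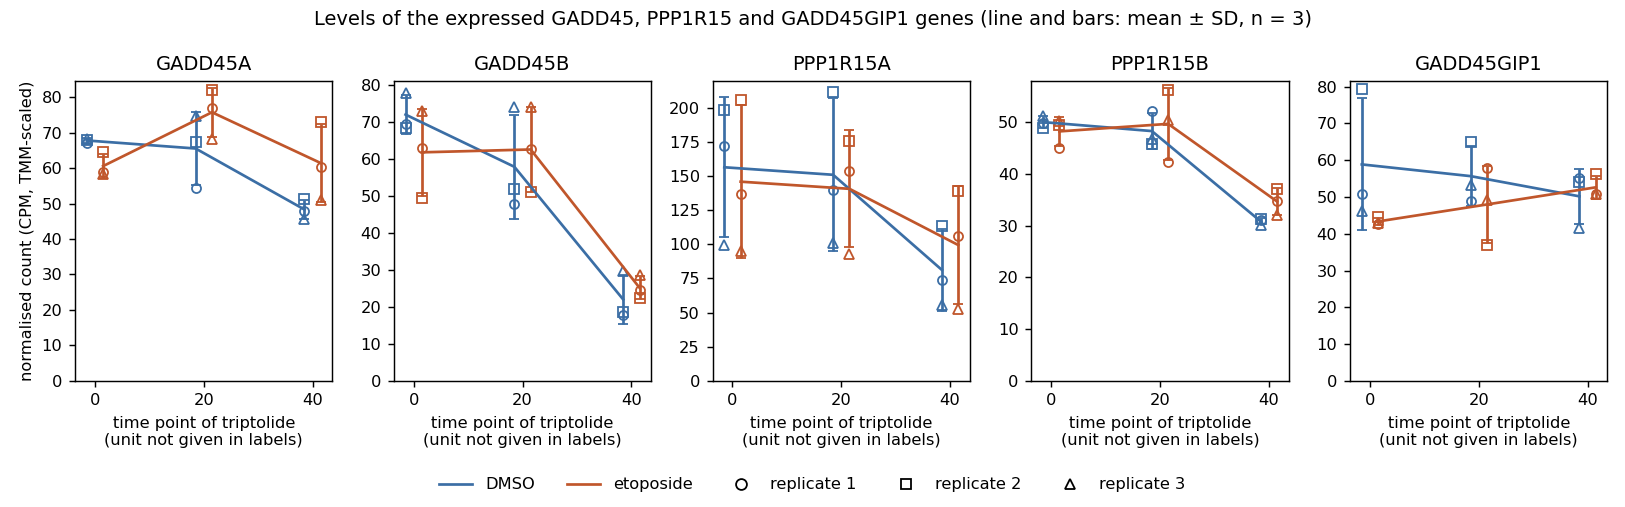
Normalised level (CPM, linear axis from 0) of the 5 detected genes at time points 0, 20 and 40 in the DMSO (blue) and etoposide (orange) arms, with 1 symbol per replicate and lines and bars for mean ± SD of 3. GADD45B had dropped to between 17.8 and 29.6 CPM in all 6 libraries of time point 40, and PPP1R15A kept replicate 2 on top and replicate 3 at the bottom in every group.

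PPP1R15A, the stress-induced subunit of the eIF2α phosphatase, lies on chromosome 19 at 48872392 to 48876057 on the plus strand (GRCh38, ENSG00000087074). With DMSO it measured 172, 198 and 99.3 CPM at 0, 140, 212 and 101 CPM at 20, and 74.1, 114 and 55.6 CPM at 40. With etoposide the levels were 137, 206 and 94.9 CPM at 0, 153, 176 and 92.8 CPM at 20, and 106, 139 and 52.9 CPM at 40. Replicate 2 was the highest and replicate 3 the lowest in 6 of 6 groups, and the groups overlapped because of this difference, while within each replicate number the level at 40 was below that at 0 and at 20 in both arms.

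The log2 change of PPP1R15A from 0 to 40 with DMSO was −0.95, with an SE of 0.42 and an edgeR adjusted p of 1.0. With the replicate block the SE was 0.11 and the change passed (log2 −0.95, edgeR adjusted p = 9.99e-06), and it did so in all 9 fits that left out a library or a number. Without the block the etoposide arm gave −0.55 (SE 0.42, edgeR adjusted p = 1.0). Including it gave −0.58 (SE 0.11, edgeR adjusted p = 0.00536), a call that 6 of 9 leave-outs kept. In these blocked fits PPP1R15A fell from 20 to 40 as well, by 0.89 with DMSO (edgeR adjusted p = 4.05e-05) and by 0.55 with etoposide (edgeR adjusted p = 0.0185, kept in 3 of 9 leave-outs). The share of the starting level left at 40 was 52.2% ± 7.87 with DMSO and 67.0% ± 10.9 with etoposide, and at 20 it was 96.7% ± 13.5 and 98.4% ± 13.3.

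PPP1R15B, the constitutive counterpart, lies on chromosome 1 at 204403387 to 204411791 on the minus strand (GRCh38, ENSG00000158615). Its DMSO levels were 49.9, 48.9 and 51.2 CPM at 0, 52.2, 45.8 and 46.8 CPM at 20, and 31.0, 31.3 and 30.2 CPM at 40. Its etoposide levels were 44.9, 49.4 and 50.3 CPM at 0, 42.4, 56.2 and 50.3 CPM at 20, and 34.8, 37.2 and 32.0 CPM at 40. The libraries of time point 40 were below all earlier ones in both arms, and the replicates were close to each other, unlike those of PPP1R15A.

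PPP1R15B fell by 0.70 on the log2 scale from 0 to 40 with DMSO (SE 0.12, edgeR adjusted p = 0.00909) and by 0.65 from 20 to 40 (SE 0.12, edgeR adjusted p = 0.0223). The first of these calls held in 2 of 9 leave-outs without the block and the second in 0. With the block, where the adjusted p was 0.00067 and 0.00231, both held in 8 of 9 and were lost without replicate 3 (adjusted p = 0.165 and 0.289). With etoposide the change from 0 to 40 was −0.48 (SE 0.12, edgeR adjusted p = 0.192). The block gave an adjusted p of 0.038 there, a call lost in each leave-out, and from 20 to 40 one of 0.0358, kept in 1 of 9. PPP1R15B at 40 was at 61.7% ± 2.53 of its start with DMSO and at 72.1% ± 7.37 with etoposide. A gene antisense to it, AL606489.1, shares 0 exon bases with it and had 65 counts in all.

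GADD45GIP1, the subunit of the mitochondrial ribosome, lies on chromosome 19 at 12953119 to 12957236 on the minus strand (GRCh38, ENSG00000179271). With DMSO it measured 50.9, 79.4 and 46.3 CPM at 0, 48.9, 64.9 and 53.3 CPM at 20, and 55.0, 54.0 and 41.5 CPM at 40. With etoposide it measured 42.7, 44.4 and 42.9 CPM at 0, 57.8, 37.0 and 49.1 CPM at 20, and 50.8, 56.2 and 50.8 CPM at 40. The highest of the 18 values was that of the second DMSO library of time point 0, the library rich in antisense counts. Part of its exons is annotated on both strands, and the strand setting of the counting is not given in the sources used here, so its counts may include antisense reads and GADD45GIP1 is uncertain for that reason.

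GADD45GIP1 passed no test. Its log2 change from 0 to 40 was −0.23 with DMSO (95% interval −0.65 to 0.19) and 0.28 with etoposide (95% interval −0.14 to 0.70), both with an edgeR adjusted p of 1.0. The sign with DMSO rested on the second library of time point 0, without which the change was 0.048. With etoposide all 3 libraries of time point 40 were above all 3 of time point 0, at 121% ± 4.52 of the start, and with DMSO the share was 108%, 68.0% and 89.7% in replicates 1, 2 and 3 (88.6% ± 20.1), the lowest being taken against that library.

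**Figure D2:**
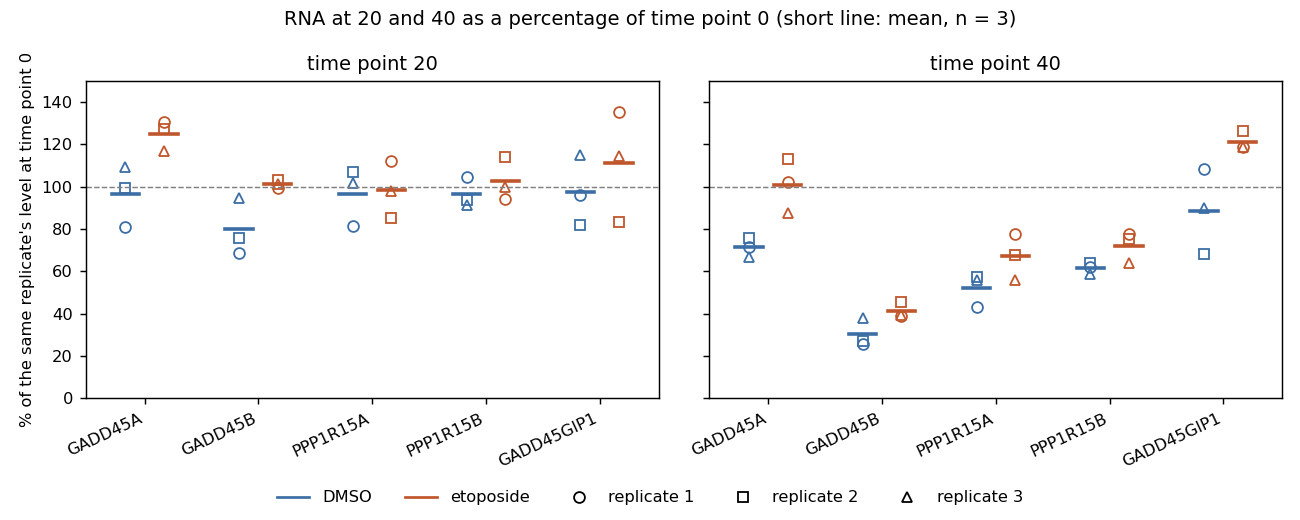
Level at time points 20 (left) and 40 (right) as a percentage of the same replicate number's level at time point 0, for DMSO (blue) and etoposide (orange), with 1 symbol per replicate and a short line for the mean of 3. At 40 the mean of each gene was higher with etoposide, from 41.1% against 30.2% for GADD45B to 121% against 88.6% for GADD45GIP1. No gene passed the test of that difference. The sign is not particular to these genes, since 2 of 20 housekeeping genes had a negative difference between the arms in the change from 0 to 40. Nor is it general, since the median of that difference over all genes was −0.0043 and 8 of 12 activators of GADD45 transcription were negative.

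Counted over the members, 2 of 5 tested genes, GADD45B and PPP1R15B, were called lower from 0 to 40 with DMSO, where 0.423% of 14186 tested genes were called in either direction. From 20 to 40 the same 2 were called with DMSO (0.219% of genes). With etoposide GADD45B alone was called, both from 0 to 40 (0.204% of genes) and from 20 to 40 (0.0423% of genes). With the replicate block 4 members were called from 0 to 40 with DMSO, where 1.23% of genes were called (1.21% lower and 0.0141% higher), and 3 from 20 to 40 (0.768%). In the etoposide arm the blocked fit called 3 from 0 to 40 (1.01%) and 3 from 20 to 40 (0.486%), namely GADD45B, PPP1R15A and PPP1R15B. All of these calls were lower levels.

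Groups whose libraries did not overlap were more frequent than calls. From 0 to 40 this held for 3 of 5 members with DMSO (GADD45A, GADD45B and PPP1R15B) and for 3 with etoposide (GADD45B and PPP1R15B lower, GADD45GIP1 higher), against 6.22% and 7.87% of tested genes. From 20 to 40 it held for the same 3 with DMSO and for GADD45B and PPP1R15B with etoposide, against 5.75% and 5.05% of genes. From 0 to 20 it held for 0 members with DMSO and for GADD45A with etoposide, against 3.24% and 3.68% of genes.

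In the interval from 0 to 20, edgeR called 0 members and 0% of all genes in either arm, where 198 genes with DMSO and 145 with etoposide had an unadjusted p under 0.05. With the block the count was also 0, and DESeq2 called 0 members. Among the members, GADD45A with etoposide alone had an interval of the change that left out 0 in the fit without the block (0.03 to 0.62), and in the blocked fit GADD45B with DMSO did so too (−0.58 to −0.09).

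The order of the levels per length was read from RPKM (CPM divided by the exon length in kb) at time point 0 of the DMSO arm. PPP1R15A stood at 50.6 ± 16.5 RPKM (SD, n = 3), followed by GADD45B at 33.7 ± 2.42, GADD45GIP1 at 33.0 ± 10.1 and GADD45A at 32.8 ± 0.28 RPKM. The last 3 did not differ beyond their spread. The mean of PPP1R15A less its SD lay within the spread of GADD45B and GADD45GIP1 and above that of GADD45A. PPP1R15B was lowest of the detected members at 9.56 ± 0.219 RPKM. At time point 40 with DMSO, PPP1R15A was at 26.2 ± 9.6 RPKM, GADD45A at 23.3 ± 1.35 RPKM and GADD45B at 10.3 ± 3.1 RPKM, so that GADD45B had moved below GADD45A with no overlap of their SDs.

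No member passed a test of etoposide against DMSO. Time point 0 came after etoposide, and the labels do not say whether triptolide was present by then. There the log2 difference of etoposide against DMSO was −0.16 for GADD45A (95% interval −0.46 to 0.13), −0.22 for GADD45B (−0.68 to 0.24), −0.10 for PPP1R15A (−0.99 to 0.79) and −0.05 for PPP1R15B (−0.30 to 0.19). A doubling, or log2 of 1.0, lies outside all 4 of these intervals. GADD45GIP1 stood at −0.44 (95% interval −0.86 to −0.02, edgeR adjusted p = 1.0), and at −0.16 without the second DMSO library. With the block the interval of GADD45GIP1 alone left out 0 (−0.77 to −0.07). The etoposide libraries of GADD45A and GADD45GIP1 were all below the DMSO libraries at 0, in a comparison where 6.25% of tested genes did not overlap. In this comparison edgeR called 0 of 14186 genes (0%) with 371 at an unadjusted p under 0.05, DESeq2 called 3 genes, and neither tool called a member. That the p-values missed the threshold does not show that the arms were alike.

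At time point 40 GADD45A measured 48.0, 51.3 and 45.7 CPM with DMSO and 60.2, 73.0 and 51.0 CPM with etoposide, and the ratio of etoposide to DMSO was 1.27 ± 0.154 over the 3 replicate numbers. The highest DMSO library lay just above the lowest etoposide library. The log2 difference was 0.35 (SE 0.14, 95% interval 0.05 to 0.64, edgeR adjusted p = 1.0). GADD45B stood at 0.20 (95% interval −0.27 to 0.66), PPP1R15A at 0.29 (−0.60 to 1.18), PPP1R15B at 0.17 (−0.08 to 0.42) and GADD45GIP1 at 0.07 (−0.35 to 0.49). With the block the intervals of GADD45A (0.09 to 0.59) and PPP1R15A (0.03 to 0.49) left out 0. The blocked intervals of the other tested members held 0, and the edgeR adjusted p was 0.997 for each member. In PPP1R15B all 3 etoposide libraries were above all 3 DMSO libraries, at 32.0 to 37.2 against 30.2 to 31.3 CPM, and 4.24% of tested genes had groups that did not overlap. Of all genes 0% were called without the block (143 at an unadjusted p under 0.05) and 0.00705%, a single gene, with it. That gene was no member but BTG2, which is in the lists of p53 targets and early-response genes read below. BTG2 was higher with etoposide, by 3.38 on the log2 scale in the fit without the block, where it was not called. DESeq2 called 1 gene, which is no member. At 20 the log2 differences of the members were −0.21 to 0.21 and 0% of genes were called, with 107 at an unadjusted p under 0.05, and 0 members had groups that did not overlap (2.82% of genes).

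The difference between the arms in the change from 0 to 40 was tested as an interaction, the change with etoposide minus that with DMSO. It was 0.51 for GADD45A (SE 0.20, 95% interval 0.09 to 0.93), 0.42 for GADD45B (SE 0.31, −0.24 to 1.07), 0.39 for PPP1R15A (SE 0.59, −0.87 to 1.65), 0.22 for PPP1R15B (SE 0.16, −0.12 to 0.57) and 0.51 for GADD45GIP1 (SE 0.28, −0.08 to 1.10). The value of GADD45GIP1 was 0.23 without the second DMSO library of time point 0. All 5 values were positive, which is a smaller fall or a rise with etoposide. This sign is not particular to the members, although the median over all genes was −0.0043. Values below 0 were held by 2 of 20 housekeeping genes, 14 of 49 mitochondrial ribosome genes and 0 of 22 early-response genes. Among the activators of GADD45 transcription 8 of 12 were below 0. The 5 values also rest on the same libraries. edgeR called no member, whether or not the block was in the model (adjusted p of 0.992 to 1.0), and 0% of genes did (188 at an unadjusted p under 0.05). With the block, the unadjusted 95% intervals left out 0 for GADD45A (0.16 to 0.86), GADD45B (0.09 to 0.81) and PPP1R15A (0.05 to 0.70). That of GADD45GIP1 did so narrowly (0.003 to 0.99), and that of PPP1R15B did not (−0.11 to 0.55). In the blocked fit 487 genes had an unadjusted p under 0.05. The interaction and the differences at 0 and 40 share libraries and are not separate evidence. The fall of GADD45B and of PPP1R15B in the DMSO arm is thus not shown to differ from that in the etoposide arm. Scaling to housekeeping genes moved the median of all genes in the interaction by −0.11, and the 5 values stayed positive under each alternative that was run.

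**Figure D3:**
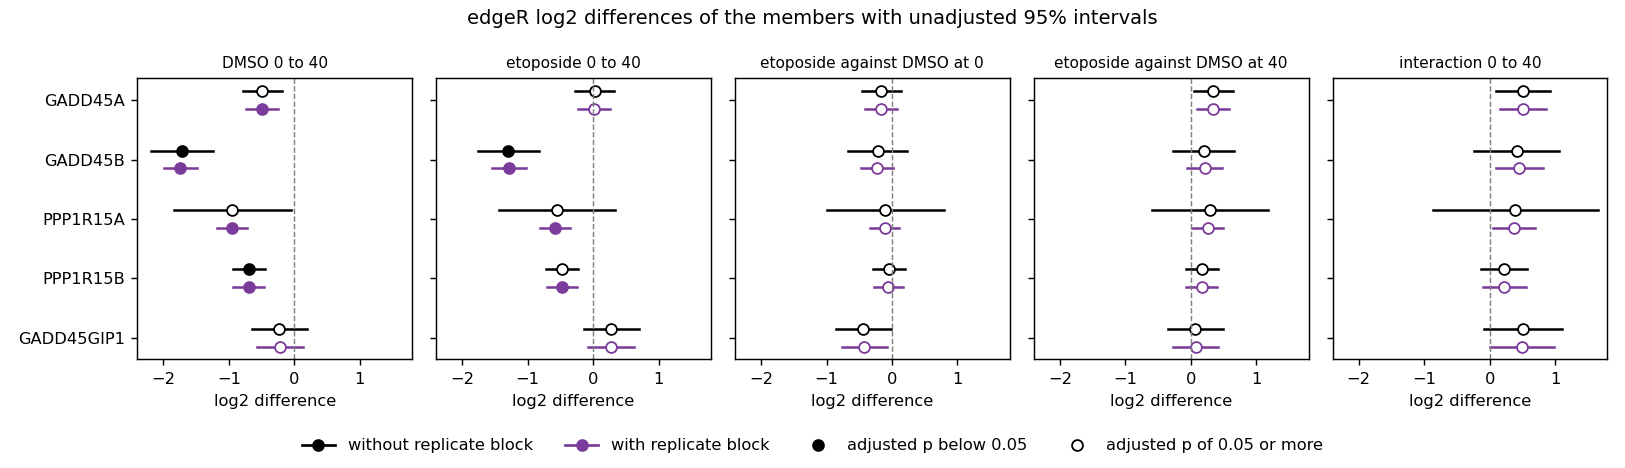
edgeR log2 differences of the 5 tested members in 5 comparisons, without (black) and with (violet) the replicate block, with unadjusted 95% intervals, and filled points for an adjusted p below 0.05. Filled points occur only in the changes from 0 to 40, and the interval of PPP1R15A narrows from −1.84 to −0.05 without the block to −1.18 to −0.72 with it in the DMSO arm.

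Lists of partner and pathway genes are read against the shares of all genes called from 0 to 40, which were 0.423% with DMSO and 0.204% with etoposide, or 1.23% and 1.01% with the block. At such shares a count of 0 in a short list is near the background. In the p38 and JNK cascade, 0 of 9 tested genes were called in either arm, in the plain and the blocked fit, and the median log2 change was 0.02 with DMSO and 0.0014 with etoposide, against 0.0047 and 0.0033 over all genes. Of the 5 binding partners outside that cascade 0 were called, with medians of −0.04 and 0.04. CDKN1A, which encodes the CDK inhibitor p21, was at −0.43 with DMSO (edgeR adjusted p = 1.0, and 0.0526 with the block).

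Of 12 genes for activators of GADD45 transcription 0 were called from 0 to 40 in either arm (medians −0.03 and −0.08). EGR1, an early-response transcription factor, was at −2.24 with DMSO (edgeR adjusted p = 0.0655) and passed with the block (edgeR adjusted p = 0.0202). The RNA-binding proteins of AU-rich mRNAs held 3 called genes of 8 with DMSO, all of the ZFP36 family that recruits deadenylases to AUUUA-rich mRNAs. ZFP36 fell by 3.16, ZFP36L1 by 1.83 and ZFP36L2 by 1.57 (edgeR adjusted p = 0.0294, 1.44e-05 and 0.004). The other 5 members of that list, among them ELAVL1, stood between −0.03 and 0.08, and the list's median was 0.0012. With etoposide 2 of the 8 were called, and 3 with the block.

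On the side of PPP1R15A and PPP1R15B, 0 of 3 catalytic subunits of protein phosphatase 1 and 0 of 12 genes for eIF2, its kinases and eIF2B were called in either arm from 0 to 40. Their medians were 0.09 and 0.07 with DMSO. Targets of the integrated stress response held 0 called genes of 15 in each arm without the block and 3 with it, all lower. With DMSO these were DDIT3, a transcription factor also named GADD153 (log2 −1.20), DDIT4, an mTORC1 inhibitor (−2.68), and CEBPB (−0.90), with blocked edgeR adjusted p of 7.98e-07, 5.47e-09 and 0.0014. ATF4, the transcription factor of that response, stood at −0.20 (blocked edgeR adjusted p = 0.462). The list's median was −0.21 with DMSO and −0.00039 with etoposide.

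Among 25 p53 targets, a group to which GADD45A belongs, 2 were called lower with DMSO from 0 to 40, BTG2 at −3.03 and PLK2 at −1.75 (edgeR adjusted p = 0.0244 and 0.0217), and 0 with etoposide. With the block the counts were 3 with DMSO, PLK3 being added, and 1 with etoposide, PLK2. The list's median was −0.09 with DMSO and 0.0018 with etoposide. Early-response genes held 10 called of 22 with DMSO (median −1.95) and 7 with etoposide (median −1.12), all lower. With the block they held 18 and 12. The change of GADD45B, −1.71 and −1.30, lay close to these medians, and those of PPP1R15B, at −0.70 and −0.48, were smaller. Among 49 genes of the large subunit of the mitochondrial ribosome, to which GADD45GIP1 belongs, 0 were called in either arm (medians −0.05 and 0.05). The lists share genes, so their counts are not separate evidence. BTG2, ZFP36 and EGR1, named with other lists above, are also among the early-response genes. In the interaction 0 members of each list were called, and the difference between the lists was not tested.

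**Figure D4:**
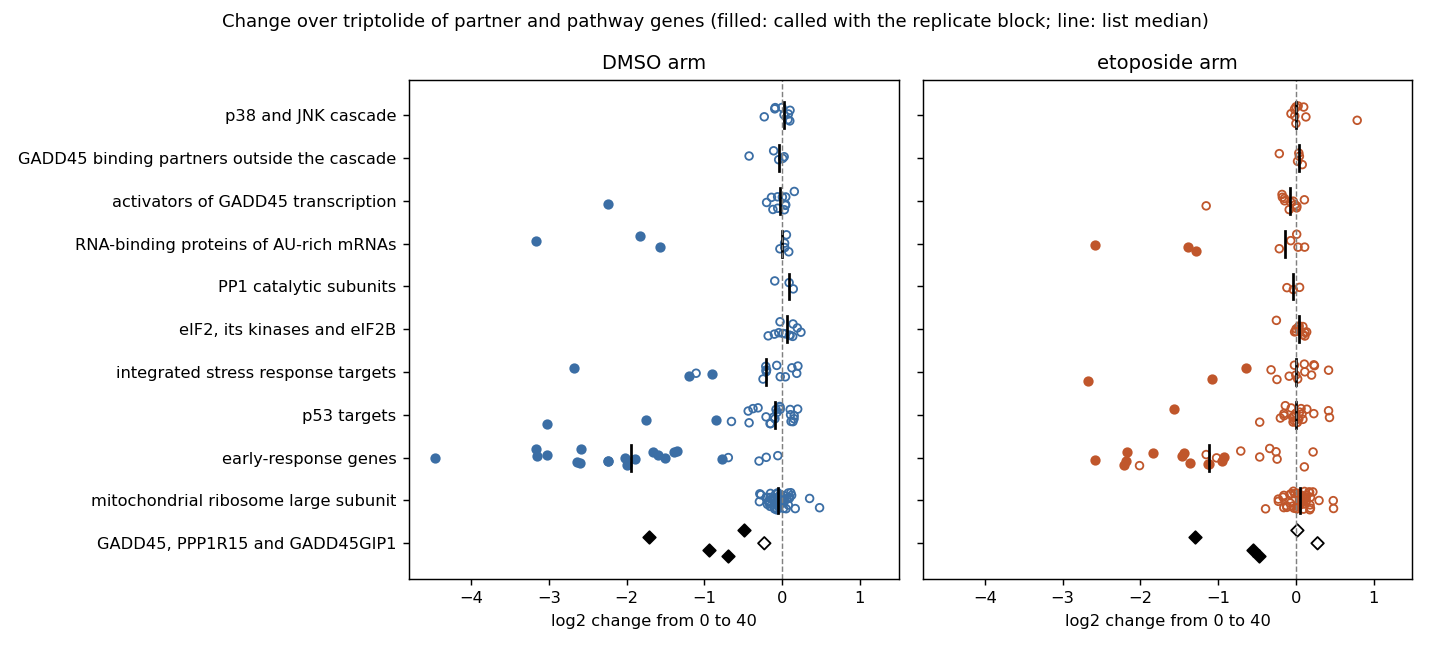
log2 change from 0 to 40 of each tested gene (1 point) in the partner and pathway lists, in the DMSO arm (left) and the etoposide arm (right), with black lines for list medians, filled points for genes called with the replicate block, and black diamonds for the 5 tested members. GADD45B at −1.71 and −1.30 lies within the span of the early-response genes. The medians of the p38 and JNK cascade, the phosphatase subunits and the mitochondrial ribosome lie near 0. Single genes reach 0.79 in the cascade and 0.48 in the mitochondrial ribosome.

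The members' patterns over the 18 libraries were compared with those of 10809 genes, on log2 CPM after the mean of each replicate number was taken off. These correlations are descriptions over libraries that share the same groups. The genes most like GADD45B were ADM, PLK2, IER2 and MYC, each with a Pearson r of 0.98. For PPP1R15A they were SGK1 (0.97), ADM (0.96), JUN (0.96) and GADD45B itself (0.96). For PPP1R15B they were SNAI2, SGK1, SNHG12 and SPRY2 (0.93 to 0.95). GADD45A was most like IER5 (0.88), YRDC (0.86), XBP1 (0.85) and CDKN1A (0.85), and GADD45GIP1 most like MZT2B, POLR2L, TRIP6 and SLC25A1 (0.91 to 0.93). Between members, r was 0.91 for GADD45B with PPP1R15B, 0.90 for PPP1R15A with PPP1R15B, and 0.69 to 0.74 for GADD45A with these 3. GADD45GIP1 ran from −0.16 to 0.05 with the others.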

How the data were processed

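RNA of 18 libraries in 6 groups was made into TruSeq Stranded mRNA libraries, per the labels. The authors deposited 1 table of raw, unnormalised read counts per gene for each library. bcl2fastq, HISAT2, featureCounts and GRCh38 (hg38) are named in the submitters' processing notes, with versions and strand setting not given in the sources used here. Groups and replicate numbers came from the titles. Counts were tested with edgeR 4.0.16 (R 4.3.3, limma 3.58.1): quasi-likelihood, robust, 1 model of 6 groups, TMM, default low-count filter (14186 genes with 99.84% of counts). P-values were adjusted by Benjamini-Hochberg over the tested genes, with calls made below 0.05. Every adjusted p is edgeR's unless the sentence names DESeq2. The p-values measure the spread between the samples that the labels call independent replicates.

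Same-numbered libraries pair: all 45 pairs with the same number correlated positively in their deviations from the group means (0.359 to 0.911, threshold 0.1), and each of 18 libraries correlated best with its own number. The pairing rests on this threshold and not on the calls. Alternatives were the replicate block, DESeq2 1.42.0 with and without it, library totals or housekeeping genes for scaling, no filter, the compared groups alone, and leaving out each library or number. The test was run on simulated data with 200 changed genes. Positions, symbols and transcripts came from GENCODE 29 (57447 of 58051 identifiers matched). Likeness used genes of at least 5 CPM and a prior count of 2.

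The members and gene lists were chosen with earlier results of these data known. The text names all members, up to 4 genes per list with the smallest blocked p in a described comparison, and the 4 genes most like each member, and may name fewer. Some further list genes (ATF4, ELAVL1 and the markers) were named as reference points after their values were seen. Some overlapping or listed genes are not reported here.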

Additional observations from a re-analysis of the deposited data

How the results depend on the processing

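The replicate block raised the counts of called genes to 109 (DMSO 20 to 40), 174 (DMSO 0 to 40), 69 (etoposide 20 to 40), 143 (etoposide 0 to 40) and 1 (etoposide against DMSO at 40). It raised those of called members to 3 (DMSO 20 to 40), 4 (DMSO 0 to 40), 3 (etoposide 20 to 40) and 3 (etoposide 0 to 40). It changed no other call of a member than those given with the results. DESeq2 called 60, 108, 27 and 68 genes in those first 4 changes, 3 between the arms at 0 and 1 at 40, and 2 members in each change of the etoposide arm. With the block DESeq2 called 136, 237, 91 and 171 genes, 7 (DMSO) and 1 (etoposide) from 0 to 20, 12 between the arms at 0 and 4 at 40. Its called members were then 3 (DMSO 20 to 40), 4 (DMSO 0 to 40), 3 (etoposide 20 to 40) and 3 (etoposide 0 to 40). The compared groups alone, with fewer samples, gave 8, 12, 0 and 6 genes and 0 members in each. Housekeeping scaling left 0 members from 20 to 40 in either arm and 1 from 0 to 40 with DMSO. Without the filter 1 member was called in each of the DMSO changes, and etoposide 20 to 40 had 12 genes, or 11 with library totals. The cause of these shifts was not tested.

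Leaving out single libraries or numbers gave 1 to 39 genes and 0 to 1 members (DMSO 20 to 40), 2 to 86 and 0 to 2 (DMSO 0 to 40), 0 to 16 and 0 to 1 (etoposide 20 to 40), 0 to 36 and 0 to 1 (etoposide 0 to 40), and 0 to 1 genes between the arms at 40. From 0 to 40, 2 genes were called with DMSO without replicate 1 and 8 without replicate 2, and with etoposide 0 and 5.

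Values near 0 changed sign. Housekeeping scaling gave −0.048 for GADD45B and −0.0084 for PPP1R15B in etoposide 0 to 20, −0.089 for GADD45A in etoposide 0 to 40 (−0.011 with library totals) and 0.049 for PPP1R15B between the arms at 0. Leave-outs ranged as follows. In DMSO 0 to 20 they ran from −0.15 to 0.085 (GADD45A), −0.22 to 0.20 (GADD45GIP1) and −0.37 to 0.17 (PPP1R15A), and in DMSO 0 to 40 from −0.39 to 0.048 (GADD45GIP1). In etoposide 0 to 20 they ran from −0.12 to 0.16 (GADD45B), −0.0074 to 0.32 (GADD45GIP1), −0.28 to 0.28 (PPP1R15A) and −0.060 to 0.15 (PPP1R15B). In etoposide 0 to 40 they ran from −0.12 to 0.14 (GADD45A) and in 20 to 40 from −0.074 to 0.33 (GADD45GIP1). Between the arms they ran from −0.43 to 0.13 at 0 (PPP1R15A). At 20 they ran from −0.022 to 0.33 (GADD45B), −0.47 to 0.067 (GADD45GIP1), −0.32 to 0.23 (PPP1R15A) and −0.093 to 0.19 (PPP1R15B), and at 40 from −0.045 to 0.18 (GADD45GIP1) and −0.028 to 0.62 (PPP1R15A). None of these was called in the reported fit. For GADD45G, with 0 counts, depth sets the limit of 0.259 to 0.377 CPM.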
